A study of Danio rerio with 12 samples.

Results

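Between 30% epiboly (30%E) and 75% epiboly (75%E) the zebrafish embryo passes from a blastula with few regional differences to a gastrula with a neural plate, a mesoderm and an epidermal territory. The values described here follow that step in QKD embryos, in which the 4 B1 *sox* genes *sox2*, *sox3*, *sox19a* and *sox19b* were knocked down together, and set it against the same step in uninjected wild-type (WT) embryos. The question is which of the normal rises and falls in transcript level failed, were exaggerated or went on as usual when B1 Sox protein was reduced. The comparison was chosen by its sample labels and used no measured value. It rests on 4 QKD arrays (2 at 30%E and 2 at 75%E) of the 12 arrays in the series, with the 4 WT arrays of the same stages beside them. The levels of the 4 arrays of the tailbud stage (TB) enter no step, but these arrays add to the shared estimate of the spread.

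Each array was hybridised with RNA of whole embryos, and the labels give 100 embryos per sample. The embryos were of the TL strain. QKD embryos had received, at the 1-cell stage, a mixture of 8 morpholino oligonucleotides (MOs), 0.9 ng of each and 7.2 ng in all, and WT embryos had received nothing. No array holds embryos injected with mismatched MOs, so that knockdown and injection cannot be told apart here. Epiboly is slower in QKD embryos, and whether the arrayed embryos were matched by clock time or by morphology is not given in the sources used here, so that a slower embryo and a changed gene cannot be told apart either. In whole embryos, fewer cells of a type and less RNA per cell cannot be told apart.

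B1 Sox proteins are HMG-box transcription factors that are present throughout the early embryo, first from maternal *sox19b* RNA, and that later keep neural progenitors in the neural plate. In this window, early zygotic patterning genes come on, neural and epidermal fates are separated by the Bmp gradient, the margin forms mesoderm under Nodal, Fgf and Wnt signals, and RNA loaded by the mother is cleared. The 8 MOs are shown because they define the QKD embryo. They are printed 5′ to 3′, and capitals mark each CAT, which pairs with the letters AUG in an mRNA.
sox2-MO2: gagaggctgctgaagttaccttagc
sox2-MO3: gaaagtctaccccaccagccgtaaa
sox3-MO1: taCATtcttaaaagtggtgccaagc
sox3-MO2: gaagtcagtcaaaagttcagagagc
sox19a-MO1: gtaCATggctgccaacagaagttag
sox19a-MO2: aaaacgagagcgagccgtctgtaac
sox19b-MO1: gtaCATCATgccacttctcgctttg
sox19b-MO2: acgagcgagcctaatcaggtcaaac
All are 25 bases long, and CAT was found in 3 of the 8, the MO1 of *sox3*, *sox19a* and *sox19b*. Morpholinos of this kind block translation and leave the mRNA in place, so the signals of the targeted genes do not measure the knockdown.

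The deposited values are linear signals made by the authors with RMA, which corrects background, normalizes between arrays and sums up the probes of a probe set. The median signal was 73.3 to 76.1 on the 12 arrays and the lower quartile 20.5 to 24.0, so a signal near or under that quartile sits at the dim end of the array, where a fold change understates a real one. A step is 75%E minus 30%E in log2, and the step difference is the QKD step minus the WT step. A probe set was called at an adjusted p under 0.05 (limma over all 12 arrays, Benjamini-Hochberg adjustment over 15502 probe sets). The standard error (SE) of a step difference had a median of 0.18.

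The step itself was largely kept in QKD embryos. It was called for 8867 probe sets in WT (57.2% of those tested) and for 9357 in QKD (60.4%), and 7638 were called in both with the same sign. Across all probe sets the steps, which share no array, had a Pearson r of 0.94 as a description, since genes are not independent replicates. A WT rise or fall was taken as a called WT step of at least 2-fold. This gave 1711 rises (11% of probe sets) and 2111 falls (13.6%). Of the rises, 1661 (97.1%) were also called upward in QKD, where 30.9% of all probe sets were, and of the falls 2091 (99.1%) were called downward, against 29.4% of all. The median rise was 1.54 in log2 in WT and 1.66 in QKD, and the median fall was -1.60 and -1.66.

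**Figure D1:**
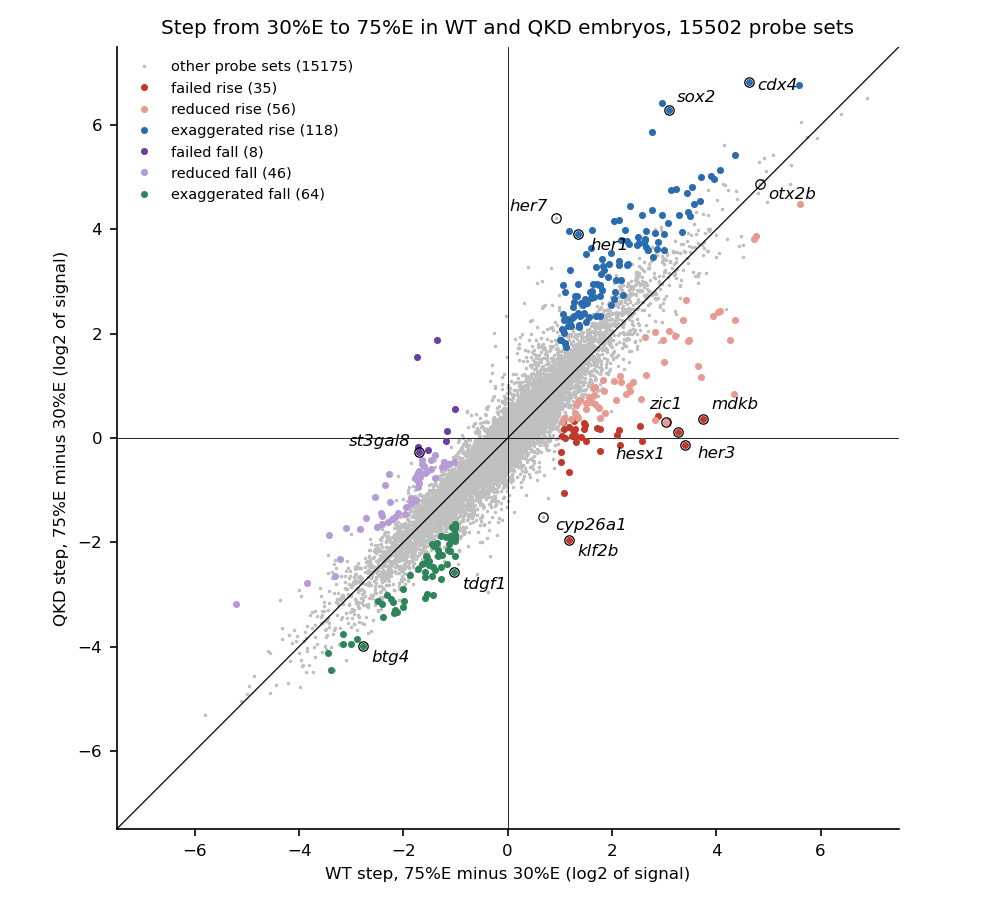
Step from 30%E to 75%E of 15502 probe sets, WT on the x axis and QKD on the y axis, both in log2 of signal. Colours mark WT rises and falls whose step differed in QKD, the diagonal marks equal steps, and most probe sets lie along it (Pearson r 0.94).

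Against this shared course, 707 probe sets (4.56%) had a called step difference, 323 with a higher (2.08%) and 384 with a lower step in QKD (2.48%). Taken as classes of WT change, 35 rises failed, which means that the difference was called and the QKD step was not called upward, and another 56 were reduced but still called upward. In 118 rises the QKD rise was larger (exaggerated). Of the falls, 8 failed, 46 were reduced and 64 were exaggerated. A change was counted as unaffected where no difference was called and its 95% interval lay within 2-fold either way, which held for 1175 rises (68.7% of WT rises) and 1641 falls (77.7% of WT falls). The 327 rises and 352 falls left over were not placed, as no difference was called but the interval reached beyond 2-fold. The WT arrays that chose a rise also enter its difference, which favours reduced over exaggerated steps. When changes were chosen instead by the mean step of WT and QKD, which is independent of the difference (an alternative added after the data were seen), 175 of 1785 rises were larger and 59 smaller in QKD, and 114 of 2189 falls were larger and 39 smaller. Same-numbered WT and QKD samples of a stage deviate together, and when the fit held the sample number of every stage as a block (the replicate block), 1875 differences were called (12.1%). The classes then held 47 failed, 142 reduced and 254 exaggerated rises, and 16 failed, 141 reduced and 219 exaggerated falls. Of the 327 rises and 352 falls not placed without the block, 169 and 178 had a called difference with it. The SE, adjusted p and fits with 1 array left out given for genes below come from the fit without the block, unless it is named. The block, which left 3 residual degrees of freedom, ended no call of a named gene. That holds also for genes whose call was lost with 1 array left out, such as *serpinh1b* (adjusted p = 6.24e-05) and *chrd* (0.014).

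The rises that failed included those of regulators of the neural plate and of the forebrain. *her3*, a Hes-family repressor of proneural genes in the neural plate, read 47.8 and 50.04 at 30%E and 651 and 411 at 75%E in WT, and 17.7 and 18.5 and then 16.4 and 16.6 in QKD. The QKD arrays stayed flat and under the WT arrays at both stages, so the step difference of -3.54 (SE 0.24, adjusted p = 2.19e-05) came on top of a lower start. *hesx1*, a homeodomain repressor of the anterior neural plate, rose from 34.0 and 39.96 to 398 and 319 in WT and read 19.4 and 15.4, then 22.4 and 15.7, in QKD. *mdkb*, which encodes the heparin-binding growth factor midkine b, began at like levels, 67.0 and 63.9 in WT and 60.3 and 48.7 in QKD. By 75%E it had reached 796 and 977 in WT, against 81.8 and 59.05 in QKD. The WT and QKD arrays of 75%E were thus far apart for all 3 genes, and the differences of *hesx1* and *mdkb* were -3.16 (SE 0.31, adjusted p = 0.000264) and -3.39 (SE 0.23, adjusted p = 2.19e-05).

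Some forebrain and eye-field genes that were dim at 30%E in both kinds of embryo did not come on in QKD. *fezf2*, a zinc-finger gene of the anterior forebrain, went from 16.4 and 17.0 to 125 and 152 in WT and from 22.2 and 23.2 to 28.5 and 27.7 in QKD, a difference of -2.74 (SE 0.30, adjusted p = 0.000568). *six3a*, a homeobox gene of the eye field, went from 34.7 and 30.3 to 145 and 143 in WT and stayed at 33.8, 35.7, 33.0 and 30.3 on the QKD arrays, a difference of -2.29 (SE 0.15, adjusted p = 2.19e-05). In both, the QKD arrays of the later stage lay below all WT arrays of that stage and near the start level. *pax6b*, a paired-box gene of eye and brain, changed by 1.46 in WT and by 0.17 in QKD. Among zinc-finger genes of the Zic family, *zic1* rose from 31.3 and 27.1 to 235 and 239 in WT but only from 30.8 and 31.8 to 35.1 and 43.1 in QKD, an upward step of 0.31 that was still called and so counts as reduced, and *zic5* had steps of 1.31 and -0.08. Of 30 measured genes on a list of forebrain and eye-field genes, 18 were WT rises, of which 7 failed, 2 were reduced and 6 were unaffected. In all, 1 of the 30 had a higher and 9 a lower step in QKD, where 2.19% of all 8138 genes had a higher and 3.04% a lower one, the shares against which the counts of every list below are read. All lists were chosen with earlier results of these data known, so a count above these shares is a description and not a test. The median step of the forebrain and eye-field list was 1.49 in WT and 0.31 in QKD, against 0.04 and 0.02 over all genes. The forebrain and midbrain homeobox gene *otx2b* was among the unaffected: 29.9 and 37.4 rose to 889 and 1029 in WT, 30.2 and 23.8 to 707 and 867 in QKD, with a difference of 0.03 (SE 0.22). *pax6b* was no longer called when WT 30%E replicate 1 or any of the 4 QKD arrays was left out (differences -1.09 to -1.33, adjusted p 0.0543 to 0.0713).

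**Figure D2:**
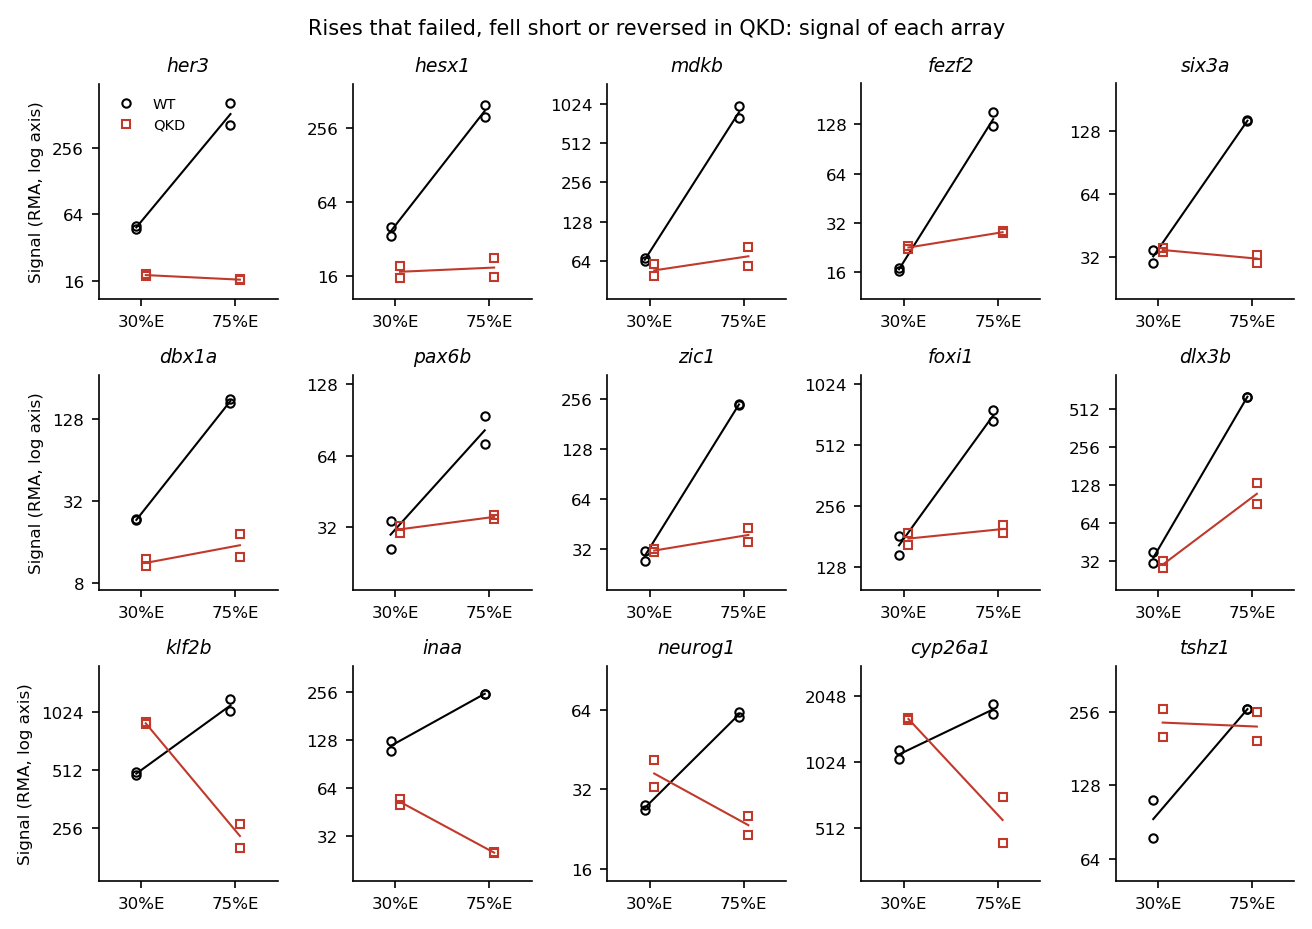
Signal of each array (log axis) at 30%E and 75%E for 15 genes, black circles for WT and red squares for QKD, with lines through the mean log2 of the 2 arrays of a stage. The QKD lines of the upper panels other than *dlx3b*, which rises less than in WT, are nearly flat where WT rises. *klf2b*, *inaa*, *neurog1* and *cyp26a1* fall where WT rises.

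Genes of the posterior neural plate and spinal cord were split. *dbx1a*, a homeobox gene of interneuron progenitors, failed, with 23.5 and 23.1 rising to 166 and 180 in WT and 10.7 and 11.99 reaching 18.5 and 12.5 in QKD (difference -2.46, SE 0.27, adjusted p = 0.000525). The homeobox gene *nkx1.2la* had steps of 1.23 in WT and 0.03 in QKD. *hoxc8a*, a trunk Hox gene, rose from 15.7 and 17.2 to 299 and 257 in WT and from 16.3 and 13.6 to 78.4 and 82.9 in QKD, so that the rise was called in both and smaller by 1.64 (SE 0.19, adjusted p = 0.000863). It was the only one of 36 measured Hox genes with a called difference, and its other probe sets had none. Of 23 measured genes on the midbrain, hindbrain and posterior neural list, 3 had a higher and 4 a lower step in QKD (13.0% and 17.4%), and the list's median steps were 1.17 and 0.84. *neurog1*, the proneural bHLH gene of primary neurons and cranial ganglia, had the opposite course in the 2 kinds of embryo. It rose from 26.6 and 27.9 to 62.7 and 60.2 in WT and fell from 32.6 and 41.4 to 25.5 and 21.6 in QKD, and both steps were called.

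Some genes of the non-neural ectoderm also failed to rise or rose less. *foxi1*, a forkhead gene of the preplacodal and epidermal ectoderm, went from 182 and 147 to 674 and 761 in WT, while QKD read 189 and 165 and then 188 and 206 (difference -1.97, SE 0.21, adjusted p = 0.000417). *dlx3b*, a homeobox gene of the neural plate border and preplacodal region, rose from 37.4 and 30.4 to 648 and 645 in WT and from 31.8 and 27.8 to 90.04 and 132 in QKD, a rise of 4.26 against one of 1.87. *msx1a*, a homeobox target of Bmp signalling, rose by 2.82 in WT and by 0.34 in QKD. For these 3 genes the arrays of 30%E overlapped between WT and QKD, and the later arrays did not overlap. *tp63*, the master regulator of epidermis, had steps of 1.27 and 0.32 on its brighter probe set and of 2.59 and -0.05 on the other. Of 22 measured genes on the ventral and non-neural ectoderm list, 14 were WT rises. Of these 3 failed, 3 were reduced, 3 were exaggerated and 3 were unaffected, and the members with a larger rise were *eve1*, *cdx4* and *sp8b*, which belong to the ventral margin and tail. In levels, 10 of the 22 were called lower and 1 higher in QKD at 30%E, against 2.92% and 5.14% of all probe sets. At 75%E, 16 were lower and 0 higher, against 3.9% and 4.49%. The median level difference was -0.61 at 30%E and -0.95 at 75%E, so an unaffected step does not mean an unaffected level. The call of *sp8b* was lost without QKD 30%E replicate 2 (1.27, adjusted p = 0.0546). The call of the brighter *tp63* probe set was lost without either WT 30%E array, either QKD 30%E array or QKD 75%E replicate 2 (differences -0.88 to -1.01, adjusted p 0.0523 to 0.071), and the other probe set had a difference of -2.64 (adjusted p = 0.00521).

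A few genes ran backwards. *klf2b*, a Krüppel-like zinc-finger gene of the early ectoderm, rose from 499.6 and 480.2 to 1192 and 1032 in WT, whereas in QKD it began high, at 886 and 904, and fell to 202 and 267. The QKD arrays were thus above WT at 30%E and below it at 75%E, and the steps of 1.18 and -1.95 differed by -3.13 (SE 0.22, adjusted p = 2.19e-05). *cyp26a1*, the enzyme that degrades retinoic acid, had the same shape: 1056 and 1165 became 1686 and 1873 in WT, and 1626 and 1587 became 441 and 708 in QKD. Its WT rise of 0.68 was under 2-fold, which keeps it out of the classes, and the difference was -2.20 (SE 0.28, adjusted p = 0.00139). *inaa*, which encodes the neuronal intermediate filament internexin, rose in WT (109 and 124 to 247 and 249) and fell in QKD (54.4 and 49.8 to 25.2 and 24.7), below WT throughout. Over all probe sets, 48 had steps called in opposite directions, and for 47 of these the difference was called too.

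A missing rise can come from a level that stays low or from one that is already high at the start. Of the 35 failed rises, 26 were called lower in QKD at 75%E and not called higher at 30%E, 4 were called higher at 30%E only, 4 both and 1 neither. Over all probe sets, 5.14% were called higher and 2.92% lower in QKD at 30%E, and 4.49% higher and 3.9% lower at 75%E. These calls share arrays with the step difference and only describe where it lies. Most genes above belong to the first kind. *tshz1*, a zinc-finger gene of the trunk and brain, belongs to the second: it rose from 77.6 and 112 to 262 and 262 in WT and already stood at 202 and 263 in QKD at 30%E, where it remained with 195 and 254. *foxb1b*, a forkhead gene of the neural plate, was of both kinds, with 49.9 and 41.9 rising to 207 and 184 in WT and 99.0, 86.7, 94.6 and 98.9 on the QKD arrays. Among the 56 reduced rises, 35 were called lower only at 75%E and 14 called higher only at 30%E. The latter included *irx1b*, an Iroquois gene of the neural plate, which read 48.9 and 43.8 in WT and 186 and 167 in QKD at 30%E, and 615 and 549.5 against 470 and 452 at 75%E. *lmo4a*, which encodes a LIM-only protein, began higher (122 and 106 against 203 and 208) and ended lower (1388 and 1612 against 466 and 454). The class of a gene thus hides which stage carries it, and the difference of levels at each stage is the base for the grouping in the plot of start and end levels.

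**Figure D3:**
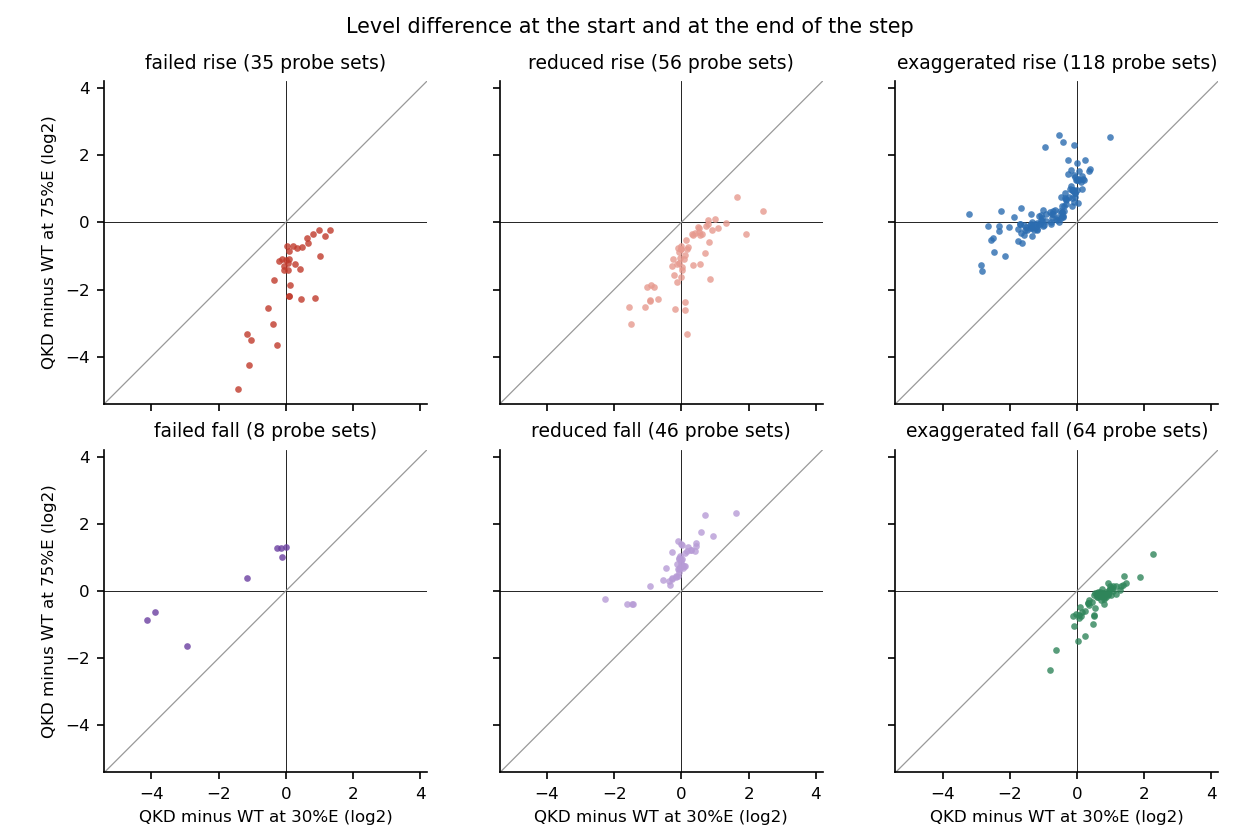
Level difference QKD minus WT at 30%E (x axis) and at 75%E (y axis), in log2, for the probe sets of 6 classes. Failed and reduced rises spread mainly downward along the y axis, exaggerated rises form one arm at low 30%E levels and one at high 75%E levels, and exaggerated falls lie mainly to the right of 0 at 30%E.

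The exaggerated rises had the reverse pattern and came in separable kinds. In 68 of the 118 the level was called lower in QKD at 30%E and not called higher at 75%E (median -1.26 at 30%E) and at 75%E the median difference was -0.06, so that these levels began low and in the median reached that of WT. In 44 it was called higher at 75%E and not called lower at 30%E (median 1.03 at 75%E), 2 had both and 4 had neither. Over all probe sets, 2.92% were called lower at 30%E and 4.49% higher at 75%E. These calls too share arrays with the step difference and only describe where it lies. The first kind held genes of the margin, tail and somite clock such as *her1*, *cdx4* and *eve1*. *her1*, a Hes-family gene of the segmentation clock, rose from 67.2 and 94.4 to 190 and 216 in WT and from 16.2 and 17.4 to 233 and 275 in QKD, a difference of 2.57 (SE 0.22, adjusted p = 7.87e-05). Its partner *her7* read 146 and 223 in WT and 17.8 and 17.8 in QKD at 30%E, and 369 and 315 against 324 and 342 at 75%E. The QKD arrays of both clock genes were at the dim end of the array at the start and overlapped WT or lay just above it at the end, with steps of 0.92 and 4.23 for *her7*, whose WT step was called but under 2-fold, which keeps it out of the class.

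The same course was seen in 2 posterior homeobox genes. *cdx4*, a Caudal gene of the tail, went from 141 and 138 to 3574 and 3301 in WT and from 29.9 and 26.7 to 3172 and 3237 in QKD, so the rise of 6.83 exceeded that of 4.62 and the end levels differed by -0.10. *eve1*, of the ventral margin, went from 430 and 347 to 1029 and 1311 in WT and from 82.7 and 71.8 to 872 and 1069 in QKD. The Notch ligand gene *dlc* (difference 2.04), the Hes-related gene *hes6* (1.62), the Wnt target *sp5l* (1.27), *spag1a* (2.03) and the laminin gene *lamb1a* (1.63) likewise started at a lower level in QKD, by 1.48 to 2.50 in log2. At 75%E they were within 0.47 of WT, and only *spag1a* was called lower there. Of 27 measured mesoderm and somite genes, 6 had a higher step in QKD and 0 a lower one, and the list's median steps were 1.35 and 1.74. Of its 14 WT rises, 10 were unaffected, among them *msgn1*, a bHLH gene of presomitic mesoderm, which rose by 5.63 in WT and 6.06 in QKD and whose difference of 0.43 was called only with the replicate block (adjusted p = 0.0439). *fgf8a*, which encodes an Fgf ligand of the margin, did not change in WT (305 and 315, then 319 and 296) and rose from 120 and 110 to 347 and 329 in QKD (difference 1.57, SE 0.14, adjusted p = 0.000178).

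**Figure D4:**
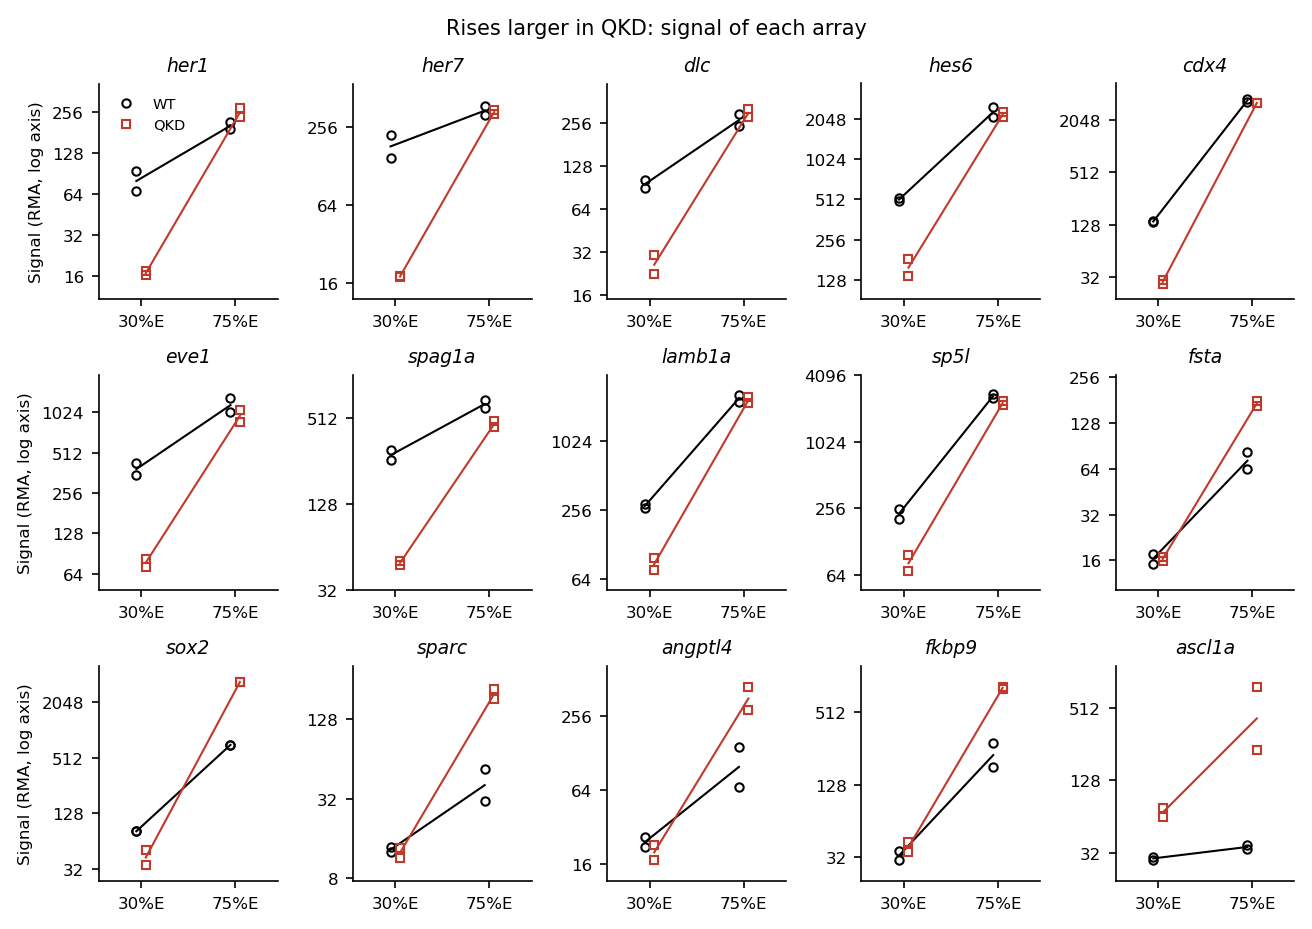
Signal of each array (log axis) at 30%E and 75%E for 15 genes whose step was higher in QKD, black circles for WT and red squares for QKD, with lines through the mean log2 of a stage. In the upper panels other than *fsta* the QKD lines start below WT and come close to it at 75%E. In the lowest panels and *fsta* they end above WT at 75%E, from a lower start in *sox2* and a higher one in *ascl1a*.

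The 2 exaggerated rises called lower at 30%E and higher at 75%E were probe sets of *sox2*, itself a target of the MOs. On the brightest it rose from 82.2 and 82.0 to 705 and 697 in WT. In QKD it rose from 51.5 and 35.5 to 3328 and 3347. A lower start was thus followed by a rise of 6.29 against 3.09 (difference 3.19, SE 0.20, adjusted p = 2.19e-05). The second kind overshot from a start that was not called lower. *sparc*, which encodes an extracellular matrix protein, was dim in both at 30%E (13.7 and 12.6 against 13.6 and 11.4). At 75%E it read 30.6 and 53.3 in WT against 215 and 181 in QKD. *fkbp9*, which encodes a prolyl isomerase, reached 179 and 281 in WT and 791 and 823 in QKD from like starts. *fsta*, which encodes the Activin and Bmp antagonist follistatin, rose from 17.8 and 15.3 to 64.0 and 82.1 in WT and from 16.0 and 16.8 to 178 and 167 in QKD. None of these overlapped at 75%E. The starts of *sparc* and *fsta* lay under the lower quartile of the arrays, where like signals do not show like RNA levels. *angptl4*, which encodes a secreted angiopoietin-like protein, had a difference of 2.12 that was lost without WT 30%E replicate 1, QKD 30%E replicate 2 or QKD 75%E replicate 2 (differences 1.81 to 1.99, adjusted p 0.0702 to 0.0817).

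*sox3*, on its brightest probe set, read 4041 and 3622, then 2250 and 2735, in WT, and 6167 and 5826, then 7089 and 7548, in QKD, so a called fall of -0.63 stood against a called rise of 0.29 (difference 0.91, SE 0.16, adjusted p = 0.00993). With WT 30%E replicate 1 left out the difference was no longer called (0.83, adjusted p = 0.0517), nor with QKD 30%E replicate 2 left out (0.87, adjusted p = 0.0505). Another probe set of *sox3* had steps of -0.30 and 1.39, a difference of 1.70 (adjusted p = 0.00141), and the dimmest had no called difference (0.20). *sox19a* changed by 0.20 in WT and 0.31 in QKD and had no called difference. *sox19b*, the maternal member, fell in both, from 516 and 625 to 259.7 and 193 in WT and from 1923 and 1944 to 595 and 494 in QKD. Its level was higher in QKD at both stages and its fall differed by -0.49 (SE 0.37), called only with the replicate block (adjusted p = 0.0479). Its other probe set, also higher in QKD at both stages, had steps of -1.66 and -1.53. There the difference was 0.13, of the other sign, and was not called with the block either (adjusted p = 0.6).

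Some rises occurred in QKD embryos and not in WT. Counting probe sets with no called WT step, a called QKD step of at least 2-fold and a called difference, there were 29 rises and 35 falls. The rises included neural differentiation genes. *ascl1a*, a proneural bHLH gene, read 29.9 and 27.99, then 34.7 and 37.4, in WT and 63.8 and 75.4, then 764 and 228, in QKD. The QKD arrays of 75%E differed by over 3-fold from each other but both lay above all others. *dlb*, a Delta ligand gene, read 18.6 and 21.7, then 15.6 and 24.8, in WT and 20.1 and 15.6, then 139 and 58.1, in QKD, again with a wide gap between the 2 later arrays. The dimmer *dlb* probe set had no called difference (0.39). *tuba1b*, a tubulin gene of neurons, reached 979 and 1078 in QKD from 372 and 504, and read 203 and 356 in WT at 75%E. Its dimmer probe set had steps of -0.34 in WT and 1.09 in QKD (difference 1.44, adjusted p = 0.0101). *sox4a* and *calb2b* rose by 1.94 and 1.72 in QKD and by 0.24 and 0.19 in WT. *pou3f1*, a POU gene of neural progenitors, whose WT step of 0.67 was called but under 2-fold, rose from 15.9 and 16.6 to 87.4 and 95.5 in QKD, against 21.0 and 14.3 to 30.6 and 24.8 in WT. Of 30 measured proneural and neuronal genes, 6 had a higher and 2 a lower step (20.0% and 6.67%), and the list's median difference was 0.14, against -0.01 over all genes. The differences of *ascl1a* (2.27, adjusted p = 0.0495) and *tuba1b* (1.55, adjusted p = 0.0455) were each lost in 10 of 12 fits that left out 1 array, with adjusted p up to 0.14 and 0.146. *ascl1a* held only without either QKD 75%E array, with differences of 1.403 and 3.145, and *tuba1b* only when WT 30%E replicate 1 or the second WT array of 75%E was out. That of *sox4a* was lost without WT 30%E replicate 1, QKD 30%E replicate 1 or QKD 75%E replicate 2 (1.52 to 1.63, adjusted p 0.0594 to 0.0722). That of *dlb* was lost without either WT 30%E array or QKD 30%E replicate 2 (2.19 to 2.48, adjusted p 0.0517 to 0.0805).

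Falls that failed were few. *st3gal8* and *st6gal2a*, which encode sialyltransferases, were at like levels at 30%E and stayed up in QKD. *st3gal8* went from 321 and 379 to 96.6 and 120 in WT and from 292 and 340.3 to 261 and 261 in QKD (difference 1.42, SE 0.21, adjusted p = 0.00399). *st6gal2a* went from 376 and 338 to 155 and 164 in WT and from 382 and 330 to 423 and 362 in QKD (difference 1.30, SE 0.18, adjusted p = 0.00248). In both the arrays overlapped at the start and were apart at the end. *adam17a*, which encodes a sheddase, had steps of -1.18 and -0.05, and *plekhf1*, which began at 395 and 448 in WT and 196 and 180 in QKD, had steps of -1.72 and -0.17. The other 4 failed falls are probe sets without a usable gene symbol. Of the 46 reduced falls, 36 were called higher in QKD at 75%E only, where 4.49% of all probe sets were called higher. *bmi1a*, a Polycomb gene, was cleared from 620 and 628 to 46.2 and 72.6 in WT but from 955 and 1064 to 240 and 325 in QKD (difference 1.58, SE 0.27, adjusted p = 0.00843). *neo1a*, which encodes the receptor neogenin, fell from 190 and 171 to 31.0 and 30.9 in WT and from 187 and 172 to 84.0 and 79.7 in QKD. *ctbp1*, a co-repressor gene, had falls of -2.34 and -0.90, and its difference was just over the limit without QKD 75%E replicate 1 (1.31, adjusted p = 0.0503).

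Most exaggerated falls had a start called higher in QKD. In 42 of 64 the level was called higher in QKD at 30%E only (median 0.87) and the median difference at 75%E was -0.06. Falls found only in QKD were alike, with 26 of 35 called higher at 30%E only. Over all probe sets, 5.14% were called higher at 30%E. These calls share arrays with the step difference, so they describe where it lies and no more. *mkln1*, which encodes muskelin, read 96.7 and 97.1, then 88.1 and 81.7, in WT and 230 and 233, then 77.4 and 74.4, in QKD. *stmn2a*, a stathmin gene of neurons, whose WT step of -0.38 was called but under 2-fold, had a wider gap at the start: 42.3 and 40.4 against 310 and 338 at 30%E, and 34.1 and 29.7 against 37.0 and 47.2 at 75%E. *btg4* and *dazl*, RNA regulators of oocyte and germ line, fell from 428 and 383 and from 142 and 160 in WT, and from 1147 and 1064 and from 273 and 237 in QKD. At 75%E both overlapped between WT and QKD. Of 17 measured maternal and oocyte genes, 0 had a higher and 2 a lower step in QKD. The list held 13 WT falls, of which 2 were exaggerated, 5 unaffected and 6 not placed. Over all genes 1082 of 1359 WT falls were unaffected. The call of *btg4* (-1.204, adjusted p = 0.0497) was lost in 10 of 12 fits that left out 1 array (adjusted p up to 0.141) and held only when WT 75%E replicate 1 (-1.44) or the second QKD array of 75%E (-1.57) was the one left out. That of *dazl* (-0.80) was lost without WT 30%E replicate 1, QKD 30%E replicate 1 or either QKD 75%E array (-0.70 to -0.82, adjusted p 0.056 to 0.0831).

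In 16 exaggerated falls the level was called lower in QKD at 75%E and not called higher at 30%E, and genes of signalling and cell movement were among them. Over all probe sets, 3.9% were called lower at 75%E. *tdgf1*, the Nodal co-receptor gene, fell from 2817 and 2422 to 1166 and 1423 in WT and from 1542 and 1426 to 241 and 260 in QKD, lower at both stages and with a larger fall (difference -1.55, SE 0.22, adjusted p = 0.00278). It was the only one of 11 measured Nodal pathway genes with a called difference. *cxcr4b*, a chemokine receptor gene, fell from 1064 and 989 to 216 and 310.0 in WT and from 696 and 634 to 71.0 and 81.6 in QKD. *her5*, a Hes-family gene of the midbrain-hindbrain boundary and endoderm, fell from 749 and 649 to 268 and 309 in WT and from 908 and 1019 to 118 and 182 in QKD. *uacab* fell from 456 and 475 to 177 and 137 in WT and from 449 and 496 to 64.8 and 48.4 in QKD. For all 4 the QKD arrays of 75%E lay below the WT arrays. Among falls found only in QKD, *eml2*, a microtubule-associated protein gene, read 256 and 253, then 181 and 222, in WT and 234 and 276, then 52.0 and 54.0, in QKD. The difference of *cxcr4b* (-1.14) was lost without either WT 30%E array, either QKD 30%E array or QKD 75%E replicate 1 (-1.04 to -1.21, adjusted p 0.0546 to 0.0818).

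Changes that went on as usual covered several tissues. *aldh1a2*, the retinoic acid synthesis gene of paraxial mesoderm, rose from 35.6 and 32.9 to 1079 and 1057 in WT and from 28.3 and 21.1 to 849 and 850 in QKD. *cdh2*, the N-cadherin gene, rose by 3.84 and 4.27, *shha*, the Hedgehog ligand gene of the axial midline, by 2.92 and 2.51, and *wnt5b*, a ligand gene of convergence and extension, by 1.88 and 2.01. By in situ hybridization the paper reports *shha* missing from the neuroectoderm of QKD embryos but present in mesoderm, which signals of whole embryos cannot separate. By RT-PCR it reports *wnt5b* as slightly lower in QKD at late epiboly. Of 31 measured adhesion and gastrulation movement genes, 3 had a higher and 2 a lower step in QKD. That list held 10 WT rises, of which 7 were unaffected and 1 failed. The yolk-associated lipoprotein gene *apoa1a* rose by 5.93 and 5.76. *mxtx2*, a homeobox gene of the yolk syncytial layer, fell from 727 and 757 to 21.7 and 24.5 in WT and from 655 and 669 to 21.7 and 22.5 in QKD, with steps of -5.01 and -4.91. *h1m* and *cth1*, maternal genes for an oocyte-type linker histone and an RNA-binding protein, had steps of -3.94 and -3.85 in WT and of -4.37 and -4.08 in QKD. Of 69 ribosomal protein genes, 34 were WT rises, all 34 unaffected, and 0 of 69 had a called difference (4 with the replicate block). Their median step was 0.95 in WT and 1.203 in QKD and the median difference 0.18, against -0.01 over all genes. The differences ran from -0.02 to 0.65, so they leaned to a larger step in QKD. At 30%E, 8 of the 69 were called lower and 0 higher in QKD, against 2.92% and 5.14% of all probe sets, and at 75%E 0 were called either way. Being unaffected is a statement about this threshold and not about equality: with the replicate block, 65 of the 1175 rises and 80 of the 1641 falls had a called difference.

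Lists of other cell types and of stress were described in the same way. Of 26 measured enveloping layer and epidermis genes, 2 had a higher step, *lye* and *grhl1*, and 0 a lower one. The list's median steps were 0.89 in WT and 1.71 in QKD and its median difference 0.38, against -0.01 over all genes. Of its 12 WT rises, 7 were not placed. *grhl1*, a Grainyhead gene of the surface layer, began at 157 and 142 in WT and 62.3 and 47.0 in QKD and ended at 282 and 215 and at 304 and 328. Of 13 yolk syncytial layer and hatching gland genes, *apoa2* and *apobb.1* had a higher and *tfa* a lower step, and *tfa*, the transferrin gene, rose by 5.62 in WT and 4.48 in QKD. Leaving out WT 30%E replicate 2, QKD 30%E replicate 2 or the second QKD array of 75%E ended its call (-0.95 to -1.03, adjusted p 0.0573 to 0.0648). Of 30 genes of p53 and stress responses, *junba* had a higher step (difference 1.23) and *serpinh1b*, a collagen chaperone gene, a lower one. In levels, 5 of the 30 were called higher and 1 lower in QKD at 30%E, 2 and 0 at 75%E, and 5 and 0 at TB. Over all probe sets the shares were 5.14% and 2.92%, 4.49% and 3.9%, and 3.15% and 3.21%. *serpinh1b* read 50.7 and 88.5 in WT and 237 and 548 in QKD at 30%E and lay between 1230 and 1828 on the 4 arrays of 75%E. Its difference of -2.10 was lost without WT 30%E replicate 1, WT 75%E replicate 2, QKD 30%E replicate 2 or either QKD 75%E array (-1.50 to -2.19, adjusted p 0.083 to 0.127). Of 32 DNA replication and cell cycle genes, 3 had a lower step, *aurka*, *plk1* and *rrm1*, and 0 a higher one. Median steps of this list were -0.37 in WT and -0.84 in QKD, with a median difference of -0.20. The calls of *lye*, *apoa2* and *apobb.1* were each lost when 1 of 3 arrays was out, namely WT 30%E replicate 1 and the second QKD array of 30%E and of 75%E (adjusted p 0.0548 to 0.0797). *rrm1* (-0.68) lost its call when either WT 30%E replicate 1 or the first QKD array of 75%E was out (adjusted p up to 0.0633), and that of *aurka* (-0.60) without any 1 of 7 arrays, all those of 30%E and 75%E except WT 75%E replicate 1 (adjusted p up to 0.101). Their part in the results above was not tested.

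Of 27 measured Bmp pathway genes, 5 had a higher step, *bmper*, *fsta*, *bmp7a*, *smad1* and *id1*, with differences from 0.99 (*id1*) to 1.48 (*bmper*), and *chrd* had a lower one. *bmp7a*, a Bmp ligand gene, read 419 and 367, then 337 and 327, in WT and 146 and 111, then 231 and 266, in QKD, with steps of -0.24 and 0.96. *bmper*, which encodes a Bmp-binding protein, began at 60.0 and 63.2 in WT and 22.4 and 19.4 in QKD and ended at 279 and 328 and at 249 and 326. *id1*, a target of Bmp signalling, read 5478 and 4985, then 3421 and 4500, in WT and 3214 and 2697, then 4395 and 4389, in QKD, so that a fall of -0.41 stood against a rise of 0.58. All 3 started below WT and ended at overlapping or closer levels. *chrd*, the Bmp antagonist chordin of the organizer, rose by 1.55 in WT and 0.78 in QKD. *lhx1a*, a homeobox gene of the organizer, fell from 149.5 and 135 to 87.0 and 77.6 in WT and rose from 88.4 and 69.7 to 109 and 117 in QKD (difference 1.32, SE 0.19, adjusted p = 0.00279). The call of *chrd* (-0.77, adjusted p = 0.0495) was lost in 9 of 12 fits that left out 1 array (adjusted p up to 0.1615) and held only without WT 75%E replicate 1 (-0.89) or a QKD TB array. *id1* (0.99) was lost without WT 30%E replicate 1, QKD 30%E replicate 2 or either QKD 75%E array (0.86 to 0.99, adjusted p 0.0502 to 0.0732), and *bmp7a* without WT 30%E replicate 1 (1.105, adjusted p = 0.0551).

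The tailbud arrays, whose levels enter no step, were then read for the same classes. The same estimate of the spread, to which they add, serves the step difference and the TB difference. The TB calls are therefore not independent of the step calls. Of the 35 failed rises, 26 (74.3%) were called lower in QKD at TB, against 3.21% of all probe sets, and 1 was called higher, with a median of -0.98 in log2. Of the 56 reduced rises, 29 (51.8%) were called lower. Within the failed rises, 22 of the 26 that were low at 75%E only were lower at TB, and 0 of the 4 that had been high at 30%E only were called. *her3* differed by -4.91 at TB, *mdkb* by -4.09, *neurog1* by -3.74 and *zic1* by -3.68, while *fezf2* and *dbx1a*, at -0.81 and -0.80, were nearer to WT than at 75%E. Of the 46 reduced falls, 18 (39.1%) were called higher at TB, against 3.15% of all probe sets, and of the 8 failed falls 3 were higher and 2 lower. The exaggerated rises divided along the same line as before. Of the 68 that had begun low, 2 were higher and 9 lower at TB, and of the 44 that had overshot, 14 were higher and 0 lower. Of the 64 exaggerated falls, 1 was higher and 5 were lower.

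**Figure D5:**
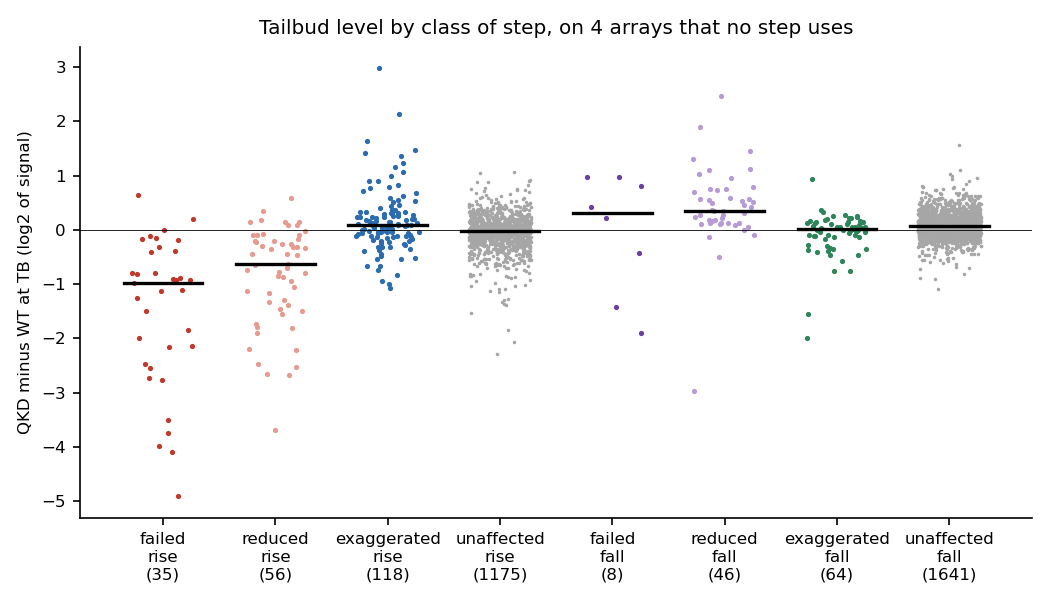
Level difference QKD minus WT at TB, in log2, on 4 arrays whose levels enter no step, for the probe sets of 8 classes (number in brackets), with a black bar at the median. Failed and reduced rises lie mainly below 0 (medians -0.98 and -0.64), while both unaffected classes centre near 0.

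The class limits are arbitrary for genes close to them. In all, 316 called differences fell outside the classes because the WT change was smaller than 2-fold or absent, and in 137 of these the QKD step was called and at least 2-fold, 70 upward and 67 downward.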

How the data were processed

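The deposited intensity values are linear signals that the authors made with RMA (version not given in the sources used here) from Affymetrix Zebrafish Genome arrays, hybridised with 10 µg of cRNA made from 4 µg of total RNA. Of 15617 probe sets, 115 controls were left out. Symbols come from the platform annotation, updated by gene ID: 10795 tested probe sets had 1 symbol, 135 several and 4572 none. The brightest probe set stands for a gene. Dimmer probe sets with no called difference were found for *her3* (-0.27), *sox2* (0.03), *dlc* (0.14), *lhx1a* (0.45) and *tshz1* (-0.11). Further dimmer ones of *sox2* (3.11), *dlc* (1.19) and *lhx1a* (1.07) had a called difference of the same sign as the brightest.

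Log2 was taken and limma 3.58.1 (R 4.3.3) fitted to 6 group means, with 6 residual and 5.11 prior degrees of freedom. Python 3.11.15 handled tables. The fit was tested on simulated data with noise drawn independently for each array. That test leaves out the shared deviations of same-numbered samples of a stage. The members and the 27 gene lists (527 measured genes) were chosen with earlier results of these data known. Named genes were drawn from the 8 largest differences per class (for unaffected changes, the largest WT steps), from those the study measured, and from the lists. Not all genes so eligible are named. *cyp26a1*, *stmn2a*, *her7*, *pou3f1* and other genes outside the classes come from the lists. The methods call the 2 samples of a group independent but name no clutches, so p-values measure the spread between these samples, and 2 arrays per group limit the precision. Some genes are not analysed here.

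Same-numbered WT and QKD samples had deviations that correlated at 0.615, 0.443 and 0.488 at 30%E, 75%E and TB (different stages -0.0835 to 0.183), so the numbers pair samples within a stage. Alternatives were other scalings, a filter, a variance trend, 8 arrays only, replicate blocks, other limits, a Student t-test with a ratio over 2, 1 probe set per gene and each array left out.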

Additional observations from a re-analysis of the deposited data

Results flagged for a closer look

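The steps of WT and QKD embryos differed, by the test of the difference itself, for 707 probe sets. Among the genes named, 8 had steps called in opposite directions. The step differences, QKD minus WT in log2, were -3.13 for *klf2b*, -2.20 for *cyp26a1*, -2.15 for *inaa*, -1.82 for *neurog1* and -0.68 for *rrm1*, which rose in WT and fell in QKD. They were 0.91 for *sox3*, 0.99 for *id1* and 1.32 for *lhx1a*, which fell in WT and rose in QKD. With 2 samples per group, no sample could be tested as standing apart from its group.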

How the results depend on the processing

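Of the 90 genes named, 78 had a called difference. Of these 55 kept the call in all 12 fits that left out 1 array and 23 lost it in at least 1, with 0 changes of sign. Median centring ended the calls of *chrd* and *btg4*, and a second quantile normalization that of *chrd*. The variance trend ended none. The filter on dim probe sets ended none among the 84 genes it kept, and removed the other 6 (*six3a*, *zic5*, *dlb*, *stmn2a*, *pou3f1* and *junba*), which have no value there. The additive replicate block, which gave counts within 1.5 times, ended the call of *chrd*. With the 8 arrays of 30%E and 75%E alone, *chrd*, *btg4*, *serpinh1b*, *angptl4*, *ascl1a*, *tuba1b* and *aurka* were not called (adjusted p 0.0514 to 0.0986).

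Counts that moved by over 1.5 times were as follows. With the dimmest 40% of probe sets dropped there were 23 failed rises, 41 exaggerated falls and 42 steps found in QKD only (35, 64 and 64 with all). With the 8 arrays of 30%E and 75%E alone, reduced falls numbered 22 (from 46). Other counts of that setting fell too but stayed within 1.5 times. It gave 493 step differences (from 707), 90 exaggerated rises (from 118) and 43 exaggerated falls (from 64). The replicate block within each stage gave 1875 step differences, 16 failed falls, 142 reduced rises, 141 reduced falls, 254 exaggerated rises and 219 exaggerated falls, and ended no call of a named gene. At an adjusted p under 0.01 there were 239 step differences, 17 reduced rises, 8 reduced falls, 53 exaggerated rises and 16 exaggerated falls. With 1 probe set per gene, which tests fewer features, the WT step was called for 5582 and the QKD step for 5852, with 5 failed falls, 74 exaggerated rises, 718 unaffected rises and 40 steps found in QKD only. A WT step of at least 4-fold left 10 failed rises, 0 failed falls, 33 reduced rises, 20 reduced falls, 56 exaggerated rises, 17 exaggerated falls, 256 unaffected rises and 445 unaffected falls. A Student t-test on log2 with a ratio over 2 called the WT step for 3532 probe sets at an unadjusted p under 0.05 and 1854 after Benjamini-Hochberg, and the QKD step for 4072 and 3544.

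With 1 array left out, step differences ranged from 296 (without QKD 30%E replicate 2) to 761, reduced rises from 24 (without QKD 75%E replicate 1) to 57, reduced falls from 13 (without QKD 30%E replicate 1) to 70 (without WT 75%E replicate 2), exaggerated rises from 66 to 125 and exaggerated falls from 18 to 86 (both lowest without WT 30%E replicate 1, the falls also without QKD 30%E replicate 2, and highest without WT 75%E replicate 1), and steps found in QKD only from 42 (without QKD 30%E replicate 2) to 90. Failed rises ranged from 28 to 39, and the failed rises and falls that also differed at TB from 21 to 32 (29 with all arrays). Except for the construction named, the cause was not tested.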
